A study of Macaca fascicularis and Macaca mulatta and Papio anubis with 20 samples.

Results

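The genes described here encode the channels through which dorsal root ganglion neurons respond directly to GABA, glycine, glutamate and acid. They are all genes whose symbol in the Macaca fascicularis feature lists begins with GABR, GRIA, GRIK, GRIN, GLRA, GLRB or ASIC, with a digit required after the glutamate receptor stems, together with the delta receptor genes. The rule used names only and no measured value, although it was chosen with earlier results of these data known. It found 42 genes among 22000 features, of which 15068 carried a symbol. The 42 were 16 GABR genes, 4 AMPA receptor genes, 5 kainate receptor genes, 6 NMDA receptor genes, 2 delta receptor genes, 4 glycine receptor genes and 5 acid-sensing channel genes.

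Dorsal root ganglia hold the cell bodies of sensory neurons that carry touch, position sense, temperature, itch and pain to the spinal cord. Fresh frozen ganglia bought from a supplier were measured with Visium, a slide of barcoded spots beneath the section on which transcripts are tallied by unique molecular identifiers (UMIs). The 16 sections labelled Macaca fascicularis, the crab-eating macaque, carried 4 title codes with 4 sections each: a female and a male in batch 1, and a female and a male in batch 2. A further 2 sections were labelled Macaca mulatta, the rhesus macaque, and 2 were labelled Papio anubis, the olive baboon, all in batch 2 with no sex given. No treatment or genotype was labelled, and age and spinal level are not given in the sources used here. Each code was taken here to stand for a single specimen, so each sex in each batch had 1 specimen. What a batch stood for was not labelled beyond its number.

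The 16 M. fascicularis sections held between 1136433 and 7073134 UMIs under tissue. Sections with the label M. mulatta were shallow, at 190376 and 264661 UMIs, and the label P. anubis covered 595020 and 12595205 UMIs. Under the label M. mulatta the feature identifiers were baboon Ensembl identifiers, and under the label P. anubis they were rhesus macaque identifiers. These 2 labels may therefore be crossed, and the text speaks of labelled sections only. The neuron marker list was at 19100 to 35200 CPM, the UMIs of a gene or list per 1000000 UMIs of its section, in the M. fascicularis sections, and 10 of its 12 genes were matched there. It was at 6540 and 15100 CPM in the sections labelled M. mulatta, over 11 matched genes. These neuron sums therefore cannot be set against those of M. fascicularis. Fibroblast genes reached 12000 and 22200 CPM in the sections labelled M. mulatta. Spots were read in 15 of the 16 M. fascicularis sections, and the spots of section 3 of the batch 2 male were not analysed here.

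GABA-A and glycine receptors are chloride channels built from several subunits, and sensory neurons keep enough chloride inside that GABA depolarises their terminals, which is the basis of presynaptic inhibition in the spinal cord. AMPA, kainate and NMDA receptors are cation channels opened by glutamate, the transmitter that primary afferents release, and sensory neurons carry some of them on their own terminals. Acid-sensing ion channels open when protons accumulate outside the cell, as in ischaemic or inflamed tissue. A UMI counts a transcript once whatever its length, so levels are compared between genes on the CPM scale, with no correction for capture that differs between genes.

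The ganglion transcripts of each family came mostly from one or a few subunits. In all, the receptor genes held 31776 of 63255489 UMIs in the 16 M. fascicularis sections, or 502 CPM. The 8 genes with at least 1000 UMIs each, among them GRIN1, GRIA4, GLRB, GRIK1, GRIK5, ASIC3 and GABRA5, held 84.9% of them. A further 9 genes had at least 100 UMIs, 10 had between 10 and 99, 10 had between 1 and 9, and 5 had 0. The GABR genes made up 25.6% of receptor UMIs, the NMDA genes 22.6%, the kainate genes 16.8%, the AMPA genes 14.2%, the glycine receptor genes 9.83%, the acid-sensing channel genes 8.42% and the delta genes 2.52%.

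**Figure D1:**
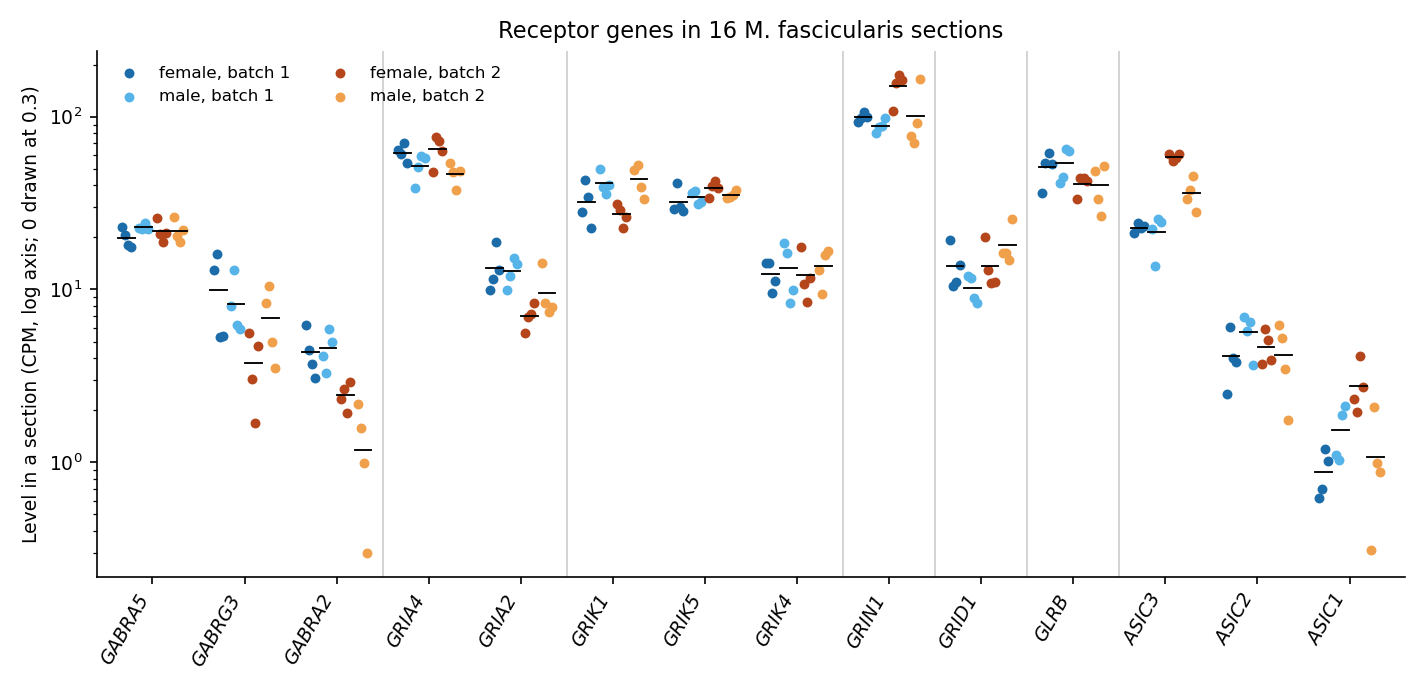
Levels of 14 receptor genes with at least 100 UMIs in 16 M. fascicularis sections, in CPM on a log axis. Each point is a section, colours mark the 4 specimens and black lines their means. GRIN1 lies highest, the ASIC3 sections of batch 2 all lie above those of batch 1, and the lowest point of GABRA2 is a section with 0 UMIs.

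GRIN1, the obligatory subunit of every NMDA receptor, was the most abundant of the 42 genes, at 110 ± 34.5 CPM (SD over 16 sections of 4 specimens). It ran from 70.4 CPM through a median of 98.3 to 175 CPM, and its sections lay between 92.6 and 107 CPM in the batch 1 female, 80.6 and 98.3 in the batch 1 male, 108 and 175 in the batch 2 female, and 70.4 and 165 in the batch 2 male. Thus all 4 sections of the batch 2 female stood above those of batch 1, while those of the batch 2 male spread across them. NMDA receptors also need a glutamate-binding GRIN2 partner, and these were scarce: GRIN2C had 94 UMIs, GRIN2A had 11, GRIN2B had 3 and GRIN2D had 0 over all 16 sections. GRIN3A, whose subunit binds glycine, had 1 UMI. GRIN1 alone held 98.5% of the UMIs of its family. A count of 0 over the 16 sections allows a level of up to 0.0474 CPM, from an upper limit of 3 counts that covers counting error only.

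Of the GABR genes, the alpha subunit gene GABRA5 was at 21.6 ± 2.56 CPM, and its 16 sections stayed within 17.6 and 26.1 CPM, with a median of 21.5. The gamma subunit gene GABRG3 averaged 7.21 CPM, with a range of 1.69 to 16.1 CPM. GABRA2 averaged 3.15 CPM and was at 0 in 1 section. Many GABR genes were near or at the floor: GABRB1 had 24 UMIs, GABRA3 had 15, GABRA4 had 5, GABRG1 had 4 and GABRP had 2, while GABRQ, GABRR2 and GABRR3 had 1 UMI each and GABRA6 and GABRB2 had 0.

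Among AMPA receptor genes, GRIA4 held 82.1% of UMIs, at 56.4 ± 11.3 CPM (SD, n = 16 sections), from 37.5 through 55.5 to 76.5 CPM. GRIA2, whose edited subunit makes the channel impermeable to calcium, was at 10.7 ± 3.64 CPM, from 5.58 through 9.94 to 18.7 CPM. The lowest GRIA4 section was thus above the highest GRIA2 section. GRIA3 had 80 UMIs and GRIA1 had 14. The kainate receptor genes were the most evenly shared family. GRIK1, a subunit long associated with small-diameter sensory neurons, was at 36.0 ± 9.42 CPM, from 22.7 through 35.0 to 52.5 CPM. GRIK5 and GRIK4 encode high-affinity partner subunits. GRIK5 was at 35.1 ± 4.25 CPM, within 28.6 and 42.7 CPM with a median of 34.6, so that it overlapped GRIK1, and GRIK4 was at 12.9 ± 3.41 CPM, from 8.34 through 12.4 to 18.5 CPM. GRIK2 had 84 UMIs and GRIK3 had 14.

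GLRB, the glycine receptor beta subunit that binds the scaffold gephyrin and forms no channel by itself, was at 46.5 ± 11.2 CPM (SD, n = 16 sections), from 26.7 through 44.4 to 65.4 CPM. Its alpha partners, which carry the glycine-binding channel, were nearly absent from the counts: GLRA2 had 31 UMIs, GLRA1 had 1 and GLRA3 had 0, and GLRB held 99% of the family. Of the delta receptors, synaptic organisers that bind cerebellins, GRID1 was at 13.9 ± 4.59 CPM, from 8.34 through 12.4 to 25.5 CPM. ASIC3, the acid-sensing channel best known from sensory neurons, was at 34.8 ± 16 CPM and held 83.0% of its family. ASIC2 was at 4.66 ± 1.51 CPM, from 1.76 through 4.54 to 6.90 CPM, and ASIC1 at 1.57 ± 0.973 CPM, from 0.311 through 1.15 to 4.10 CPM. ASIC4 had 43 UMIs and ASIC5 had 0.

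Between batches, ASIC3 had the lowest p of the receptor genes tested. In batch 1 its level was 21.1, 24.1, 22.7 and 23.3 CPM in the 4 female sections and 22.4, 13.6, 25.5 and 24.5 CPM in the 4 male sections. In batch 2 it was 60.4, 55.2, 57.7 and 61.1 CPM in the female sections and 33.5, 37.8, 45.4 and 28.2 CPM in the male sections. Every batch 2 section was above every batch 1 section, and within batch 2 every female section was above every male one. Summed per specimen, the level was 1.18 ± 0.26 log2 units higher in batch 2 (SE, 2 specimens against 2, sex as a term), and did not pass at the adjusted p of 0.05 used throughout (edgeR's quasi-likelihood test, Benjamini-Hochberg over 12650 features, adjusted p = 0.0559). DESeq2, the fit without a filter on low counts and both fits with sections as samples called it, as did 9 of the 16 fits that left out 1 section, with adjusted p between 7.16e-06 and 0.114 over all alternatives. The sections whose omission brought the call were female 1, 2 and 4 and male 1, 3 and 4 of batch 1, and female 1 and 3 and male 4 of batch 2, where the value lay between 1.16 and 1.25.

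The filter on low counts left 22 of the 42 genes in the batch and sex tests. For batch, 0 of them were called, against 2.89% of all features (1.32% higher and 1.57% lower in batch 2), and 1, ASIC3, had an unadjusted p under 0.05. Sections as separate samples gave 6 calls of 16 tested, against 4317 of 10670 features, although sections of a specimen are not independent of each other. Read over sections, 2 of the 37 genes with a UMI had no overlap between batches, against 5.95% of all features with a UMI (1.93% higher and 4.02% lower in batch 2). They were ASIC3 and GABRA2, which had 3.07 to 6.21 CPM in batch 1 and 0 to 2.93 CPM in batch 2. The fitted difference of GABRA2 was -0.99 ± 0.51 log2 units, higher in batch 1 (edgeR's quasi-likelihood test, adjusted p = 0.346). Fibroblast markers also differed by batch, with 5 of 6 tested genes called lower in batch 2, and so did the Space Ranger version; their part in the ASIC3 difference was not tested.

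Between sexes, 0 of 22 genes were called, against 0.0% of all 12650 features, and 0 receptor genes had an unadjusted p under 0.05 in edgeR's quasi-likelihood test. DESeq2 also called 0 receptor genes. Sections of the sexes did not overlap for 0 of 37 genes, against 0.0404% of features in all, which were lower in females. The lowest p was that of GRIN1, at 0.53 ± 0.24 log2 units higher in females (SE, 2 specimens against 2, adjusted p = 0.998, edgeR's quasi-likelihood test). With 1 female and 1 male per batch, these data give little power to find a difference.

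Spots were then used to ask which sensory neurons the transcripts lay near. PVALB encodes parvalbumin, a calcium-binding protein of proprioceptors and other large myelinated neurons, and SCN11A encodes NaV1.9, a sodium channel of nociceptors. In the 14724 spots with at least 500 UMIs, 2872 had PVALB and no SCN11A and 3014 had SCN11A and no PVALB. A spot can hold several cells, so these are spots with a marker and not cell types, and a lower level can come from fewer cells of a type or from less RNA per cell, which cannot be told apart. Counts were summed per specimen and tested with the specimen as a block.

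The receptor genes divided between these spots. Of the 16 that passed the filter on low counts, 5 were higher in PVALB spots and 7 in SCN11A spots, against 12.0% and 11.8% of the 10675 features tested. That is 12 of 16 called, against 23.8% of all features. Neuronal genes outside the rule were also often called, since of 10 neuron-list genes tested 3 were higher and 4 lower in PVALB spots. Higher in PVALB spots were, among others, GLRB, GRIA4, GRIA2 and GRIN1. Higher in SCN11A spots were, among others, GABRG3, GRIK4, GRIK1, ASIC2 and GRID1. The other 26 genes were too sparse in these spots to be tested, so the count says nothing of them. The median log2 fold was -0.25 over the 16 genes and -0.01 over all features tested.

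**Figure D2:**
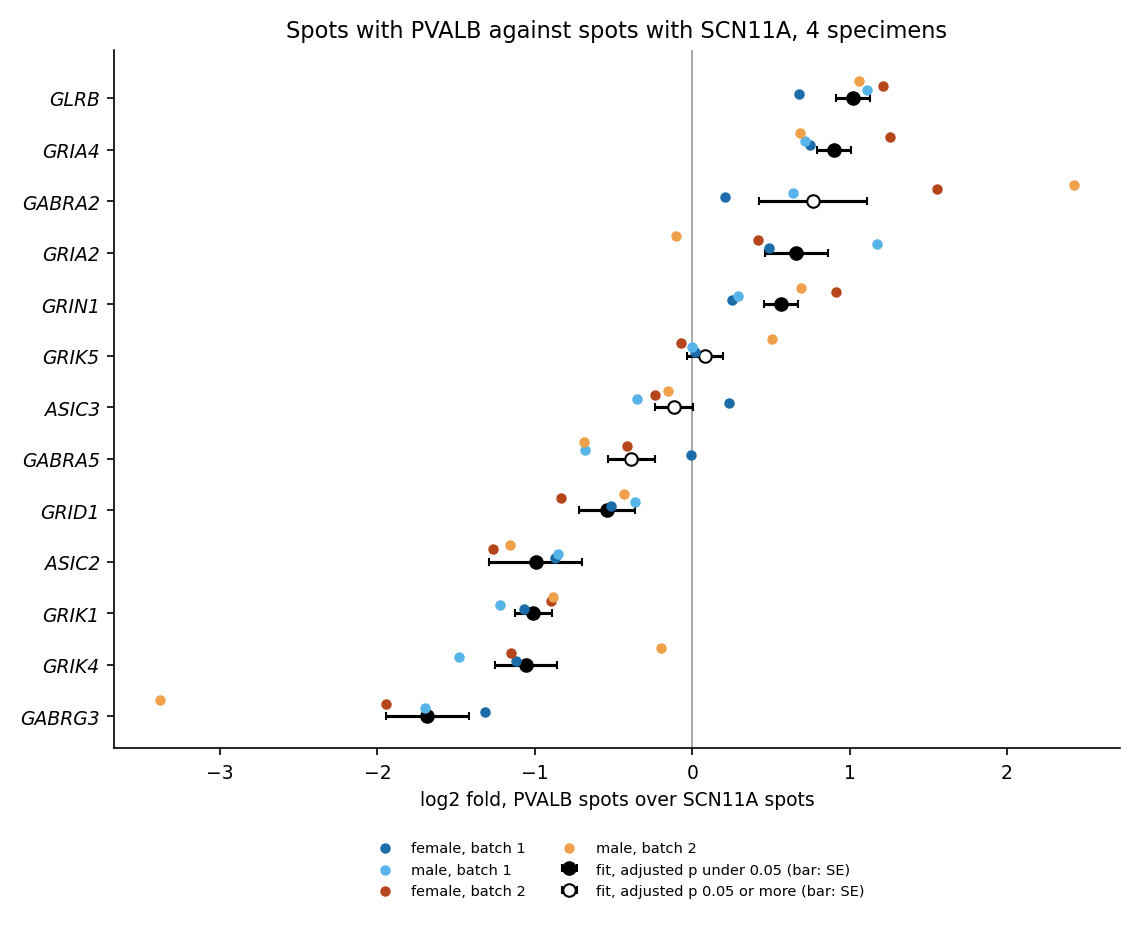
Difference between spots with PVALB and spots with SCN11A for 13 of the 16 receptor genes tested, as log2 fold on the horizontal axis. Black circles with bars are the fitted value and its SE, filled where the adjusted p was under 0.05, and coloured points are the ratios of CPM in the 4 specimens. GLRB and GRIA4 lie at the top and GABRG3, GRIK4 and GRIK1 at the bottom, each with all 4 specimens on the same side of 0.

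GLRB had the largest difference on the PVALB side. In PVALB spots it was at 74.3, 81.3, 58.5 and 77.4 CPM in the batch 1 female, the batch 1 male, the batch 2 female and the batch 2 male, and in SCN11A spots at 46.4, 37.7, 25.3 and 37.2 CPM in the same order. The groups did not overlap, and the fitted difference was 1.02 ± 0.11 log2 units (SE, 4 specimens; edgeR's quasi-likelihood test, Benjamini-Hochberg adjusted p = 1.57e-06). GRIA4 was at 81.2, 68.3, 93.7 and 65.5 CPM in PVALB spots and 48.3, 41.5, 39.2 and 40.7 CPM in SCN11A spots, in that order. It was also higher in every specimen, by 0.90 ± 0.11 log2 units (adjusted p = 7.55e-06, edgeR). GRIN1 was at 109, 100, 200 and 125 CPM against 91.7, 81.8, 106 and 77.5 CPM. Here the groups overlapped, although PVALB spots were higher in 4 of 4 specimens, by 0.56 ± 0.11 log2 units (adjusted p = 0.00125, edgeR).

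The other AMPA gene called, GRIA2, was at 16.4, 22.5, 8.23 and 11.9 CPM in PVALB spots and 11.7, 9.97, 6.16 and 12.8 CPM in SCN11A spots, higher in 3 of 4 specimens with a fitted 0.66 ± 0.20 log2 units (adjusted p = 0.0202, edgeR). The batch 2 male was the exception. DESeq2 did not call GRIA2 (0.61, adjusted p = 0.212), and without the batch 1 male it was at 0.37 (adjusted p = 0.353, edgeR) and without the batch 1 female at 0.73 (adjusted p = 0.0597, edgeR), neither of them called.

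On the SCN11A side stood the kainate pair GRIK1 and GRIK4. GRIK1 was at 45.8, 51.8, 40.5 and 50.5 CPM in SCN11A spots and 21.8, 22.2, 21.7 and 27.4 CPM in PVALB spots, in the same order of specimens. The groups did not overlap and the fitted difference, PVALB minus SCN11A, was -1.01 ± 0.12 log2 units (SE, 4 specimens; adjusted p = 4.38e-06, edgeR's quasi-likelihood test). GRIK4 was at 15.8, 16.2, 17.2 and 16.4 CPM in SCN11A spots and 7.27, 5.80, 7.73 and 14.3 CPM in PVALB spots. It did not overlap either, with a fitted -1.06 ± 0.20 (adjusted p = 0.000579, edgeR), though the batch 2 male contributed little. The third kainate gene tested, GRIK5, was at 38.5 ± 4.82 CPM in PVALB spots and 35.6 ± 5.08 CPM in SCN11A spots (SD, n = 4) and did not pass, with a fitted 0.08 ± 0.12 (adjusted p = 0.708, edgeR).

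Of the GABA-A genes, GABRG3 was at 13.4, 12.2, 6.48 and 12.4 CPM in SCN11A spots against 5.37, 3.76, 1.68 and 1.19 CPM in PVALB spots. It had the largest difference of the 16 genes, -1.68 ± 0.26 (adjusted p = 0.000101, edgeR), and no overlap. GABRA5, at -0.39 ± 0.15 (adjusted p = 0.0705, edgeR), and GABRA2, at 0.77 ± 0.34 (adjusted p = 0.119, edgeR), did not pass.

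Of the acid-sensing channels, ASIC2 was at 4.64, 6.78, 6.48 and 5.31 CPM in SCN11A spots and 2.53, 3.76, 2.69 and 2.38 CPM in PVALB spots. The groups did not overlap, and the fitted difference was -0.99 ± 0.30 log2 units (SE, 4 specimens; adjusted p = 0.0193, edgeR's quasi-likelihood test). Without section 4 of the batch 1 male it was -0.90 and not called (adjusted p = 0.0519, edgeR), nor was it with DESeq2 (adjusted p = 0.208) or without any one of 3 specimens, the batch 2 male being the exception. ASIC3 was at 31.9 ± 15 CPM in PVALB spots and 35.6 ± 19 CPM in SCN11A spots (SD, n = 4) and did not pass, with a fitted -0.12 ± 0.12 (adjusted p = 0.561, edgeR). GRID1 was higher in SCN11A spots, at 15 ± 2.89 CPM against 10.4 ± 2.05 CPM, with a fitted -0.54 ± 0.18 (adjusted p = 0.0309, edgeR). That call was lost when any of 5 sections was left out, namely female 3 and male 4 of batch 1 and female 2, female 3 and male 2 of batch 2, with values between -0.43 and -0.49, and with DESeq2 (adjusted p = 0.305).

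In spots with both markers GRIA4 was at 66.7, 59.2, 66.2 and 54.9 CPM, in the same order of specimens, between the levels of the 2 kinds in 4 of 4 specimens. GRIK1 was at 37.5, 46.6, 32.3 and 51.6 CPM there, between them in 3 of 4 specimens. The contrast did not differ between batches for any of the 16 genes in a test of the interaction, against 0.244% of all features called, 0.159% larger and 0.0843% smaller in batch 2 (edgeR's quasi-likelihood test). At an unadjusted p under 0.05, 1 of the 16 differed.

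The 2 kinds of spot differed in more than the marker. The neuron list was higher in PVALB spots in 4 of 4 specimens, at 25780 to 38570 CPM against 21500 to 26070 CPM, and within it the neurofilament genes NEFH and NEFL were 1.53 and 1.25 log2 units higher while PRPH and GAP43 were lower by fitted values of -0.65 and -0.77. All 6 fibroblast genes tested were higher in PVALB spots, with list sums of 1314 to 6935 CPM against 1168 to 4050 CPM. Of the satellite glia genes 4 of 7 were called higher and 1 lower in PVALB spots, and 2 of 4 smooth muscle genes, 2 of 4 endothelial genes, 1 of 5 myelinating Schwann cell genes and 1 of 6 immune genes were called higher. Median depth was greater in SCN11A spots in 11 of 15 sections. A further choice, made after the data were seen, took spots above their section's median for the share of the neuron list without neurofilament genes and PRPH. In them 11 of the 16 genes were called, all of them among the 12, against 2417 of 10226 features. DESeq2 called 7 of 16, against 1322 of 10675 features. With every spot thinned to 500 UMIs only 4 genes could be tested and 1, GRIN1, was called, against 363 of 4092 features. GRIA4 (adjusted p = 0.0649, edgeR's quasi-likelihood test) and GRIK1 (adjusted p = 0.535, same test) were tested there and lost their call. The part that the differences between the 2 kinds of spot had in the result was not tested.

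Over single spots the correlations with the markers were weak and are given only as a description. The median Pearson r over 15 sections, with 425 to 1526 spots each, was 0.145 between PVALB and GRIA4, 0.138 between PVALB and GRIN1 and 0.135 between PVALB and GLRB. For SCN11A it was 0.192 with GRIK1 and 0.102 with GRIK4. For other genes called in this contrast it was closer to 0, at 0.013 between PVALB and GRIA2, and for SCN11A at 0.069 with GRID1, 0.062 with GABRG3 and 0.048 with ASIC2. PVALB and SCN11A themselves had a median r of 0.005. Spots of a section share a library and differ in depth, and most receptor genes had 0 UMIs in most spots.

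Spots rich in neuronal transcripts were compared with the other spots of their section, to ask which receptor genes followed neuronal content. The 25% of spots with the highest share of UMIs from the neuron list (3680 spots) was set against the rest (11044 spots), summed per specimen. Of the 20 receptor genes tested, 6 were higher and 4 lower in neuron-list spots, against 19.8% and 21.3% of 11955 features. The total of 10 of 20 stands near the 41.1% of all features called. Among those higher were GRIN1, GRIA4, GLRB, GABRA2 and ASIC1, and among those lower GABRG3, GRIK4 and GRIK1.

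**Figure D3:**
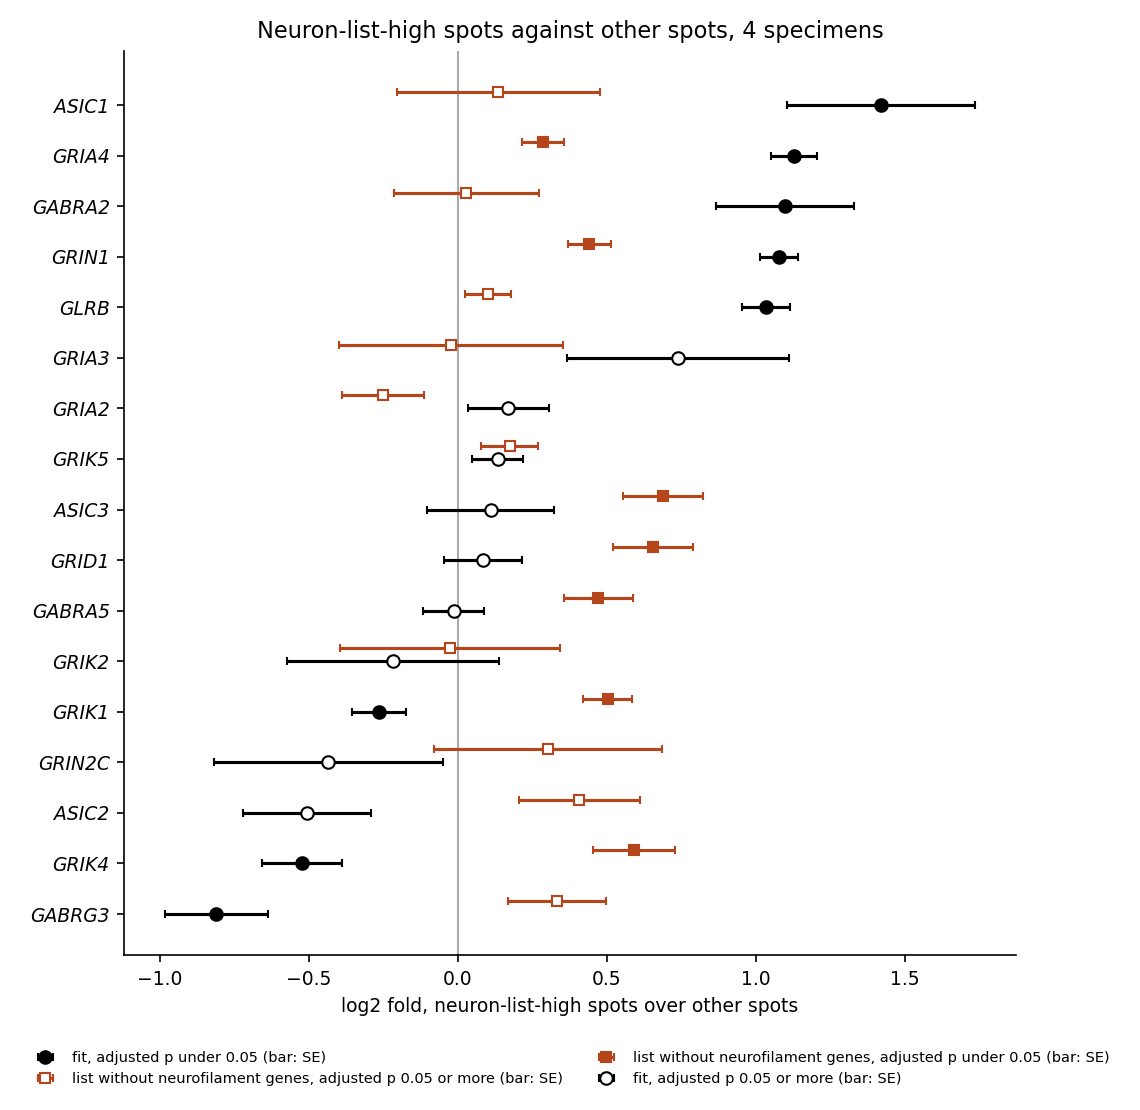
Difference between neuron-list-high spots and other spots for 17 of the 20 receptor genes tested, as log2 fold with SE over 4 specimens. Black circles use the full neuron list and orange squares the list without its neurofilament genes and PRPH, filled where the adjusted p was under 0.05. GABRG3, GRIK4 and GRIK1, called lower with the full list, lie to the right of 0 with the shorter list.

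GRIN1 was at 147, 126, 216 and 144 CPM in the neuron-list spots of the batch 1 female, batch 1 male, batch 2 female and batch 2 male, and at 71.0, 64.3, 112 and 71.4 CPM in their other spots. The groups did not overlap, with a difference of 1.08 ± 0.06 log2 units (SE, 4 specimens; adjusted p = 7.71e-11, edgeR's quasi-likelihood test). GRIA4 was 1.13 ± 0.08 higher, from 42.2 ± 4.56 CPM to 85.2 ± 11.9 CPM (SD, n = 4; adjusted p = 5.73e-10, edgeR). GLRB was 1.04 ± 0.08 higher, from 37 ± 4.81 to 69.6 ± 9.69 CPM (adjusted p = 3.84e-09, edgeR). Both were higher in 4 of 4 specimens, without overlap. The low genes ASIC1 and GABRA2 were higher by 1.42 ± 0.32 and 1.10 ± 0.23 log2 units, each in 4 of 4 specimens.

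GABRG3, GRIK4 and GRIK1, called lower here, were also higher in SCN11A spots. ASIC2 and GRID1, higher in SCN11A spots too, were not called here. Their fitted values were -0.50 (adjusted p = 0.0656, edgeR) and 0.09 (adjusted p = 0.635, edgeR). The full list contains neurofilaments, the filament proteins of large myelinated neurons, and with it PVALB was 1.63 log2 units higher and SCN11A lower by a fitted -1.04 in neuron-list spots. With NEFL, NEFH and PRPH left out of the list, PVALB was at -0.51 and SCN11A at 0.59. NEFM was not among the matched genes. PRPH was itself lower in PVALB spots, and the part of each gene in the shift was not tested. With that shorter list 10 of 20 receptor genes were called, all higher and 0 lower. Of all 12075 features tested with it, 1306 were called higher and 1841 lower. GRIK1 moved from -0.26 to 0.50, GRIK4 from -0.52 to 0.59 and GABRG3 from -0.81 to 0.33, the last not called (adjusted p = 0.141, edgeR's quasi-likelihood test). GRIN1 and GRIA4 kept their call at 0.44 and 0.29, and GLRB, at 0.10, ASIC1 and GABRA2 lost theirs. ASIC3, GRID1 and GABRA5, which the full list did not call, were higher by 0.69, 0.66 and 0.47 with the shorter one.

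The fall of GRIK1 lost its call without section 2 of the batch 1 female (-0.22, adjusted p = 0.0650, edgeR) or section 2 of the batch 1 male (-0.23, adjusted p = 0.0549, edgeR). Thinned to 500 UMIs per spot, GRIK1 was higher in neuron-list spots (0.66, adjusted p = 0.0229, edgeR). In that fit 5 of 11 tested genes were called, all higher, against 730 higher and 906 lower of 8287 features. Neuron-list spots were deeper in 14 of 15 sections. Fibroblast, smooth muscle and immune genes were lower in them, in 6 of 6, 4 of 4 and 6 of 6 genes tested, and myelinating Schwann cell genes in 4 of 5. Their part in the receptor differences was not tested.

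ASIC3 was the 1 gene of 20 whose neuron-list contrast differed between batches, against 0.368% of all features (0.201% larger and 0.167% smaller in batch 2). In neuron-list and other spots it was at 29.1 and 19.1 CPM in the batch 1 female and at 24.2 and 19.5 CPM in the batch 1 male. In batch 2 it was at 48.6 and 69.4 CPM in the female and at 33.1 and 34.0 CPM in the male. It was thus higher in neuron-list spots in both batch 1 specimens and lower in the batch 2 female. In the batch 2 male the levels of ASIC3 nearly matched, on 54 and 145 UMIs. The difference of the contrasts, batch 2 minus batch 1, was -0.93 ± 0.18 log2 units (edgeR's quasi-likelihood test of the interaction, adjusted p = 0.0222).

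The genes that make, move and scaffold around these receptors were called about as often as genes at large, in both directions. In PVALB against SCN11A spots, the list of GABA and glycine partners had 1 gene called higher and 1 lower of 12 tested, the glutamate list 3 higher and 3 lower of 21, and the acid-sensing list 0 of 4, against 23.8% of all features. In PVALB spots the metabotropic receptor gene GRM8 was 1.38 log2 units higher, the glutaminase gene GLS2 1.41 and the glial glutamate transporter gene SLC1A3 0.41. On the SCN11A side were CNIH2, an AMPA receptor auxiliary protein (-1.56), the GABA-degrading enzyme gene ABAT (-1.03), the vesicular glutamate transporter gene SLC17A6 (-0.56) and the glutamine synthetase gene GLUL (-0.20). In neuron-list spots the same lists gave 3 higher and 2 lower of 14, 5 higher and 5 lower of 23, and 0 higher and 1 lower of 4, against 41.1% of all features. No partner gene was called for batch or sex by edgeR's quasi-likelihood test.

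Spatial clustering within sections was read from Moran's I, which is positive where neighbouring spots resemble each other. In the authors' deposited tables, an adjusted p under 0.05 was given in 69 of the 404 pairs of receptor gene and section, or 17.1%, against 16.2% of all features, so receptor genes passed about as often as genes at large. The median section had 4.5 such genes, with a range of 1 to 9. GRIN1 passed in 13 of 16 sections with a median I of 0.0394, GRIK1 in 9 with 0.0229, GRIA4 in 8 with 0.0225, ASIC3 in 5 with 0.0125 and GLRB in 4 with 0.0180, all in the authors' deposited tables. The spot markers were higher there, with SCN11A at 0.112 in 16 of 16 sections passed and PVALB at 0.0896 in 14. With I of at least 0.1 required as well, 5 pairs remained, 1.24% against 2.71% of all features. Of these, 4 were in section 2 of the batch 1 female, where GRIN1 reached 0.176, GRIA4 0.173 and GRIK1 0.169. By the same rule 4 of the 26 receptor genes listed in that section passed, against 2232 of its 13909 listed features. Receptor genes thus passed there about as often as genes at large. That section also had the highest median depth of the 15, at 5145 UMIs per spot.

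**Figure D4:**
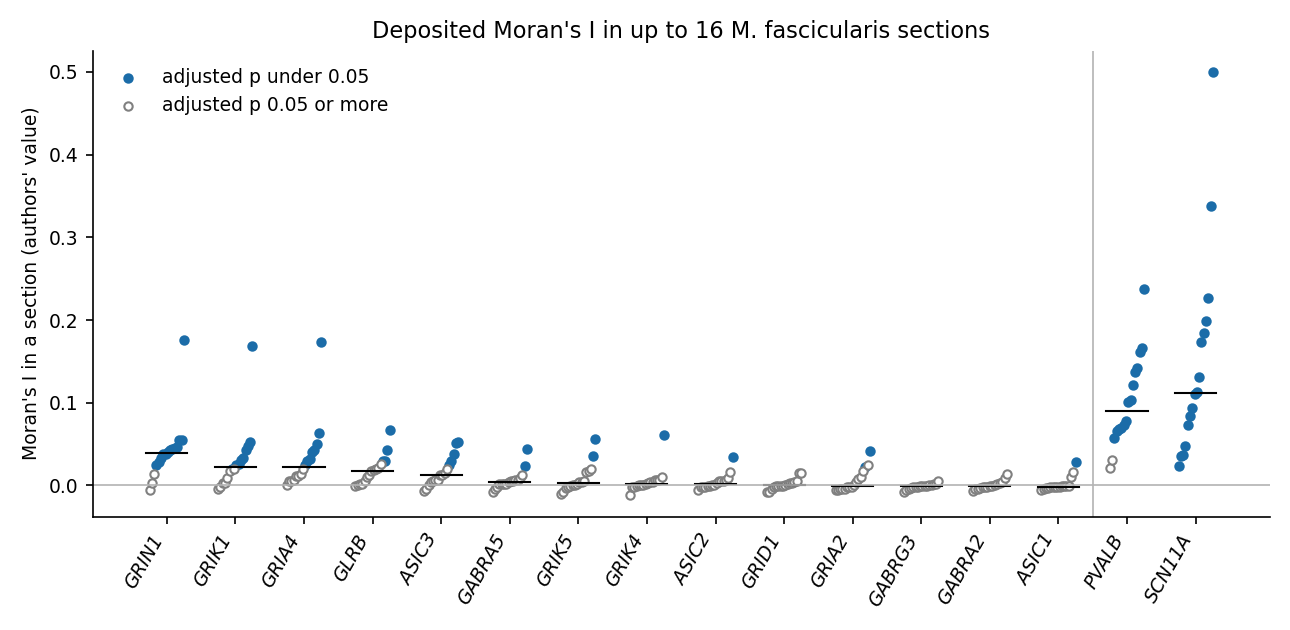
Moran's I as deposited by the authors for 14 receptor genes with at least 100 UMIs and for PVALB and SCN11A, one point per M. fascicularis section, filled where the deposited adjusted p was under 0.05. Black lines are medians, 0.0394 for GRIN1 and 0.112 for SCN11A, and the highest points of GRIN1, GRIK1 and GRIA4 come from the same section.

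Across labelled species, levels were compared over 13089 shared symbols, of which 40 were receptor genes; GABRA5 and GRIN2B were the others. With 1 specimen for each of the other labels there was no test, and genes were called apart when means differed at least 4-fold and sections did not overlap. In sections labelled P. anubis 6 of 40 genes were apart from M. fascicularis, against 13.8% of all shared symbols. Of these 2 were higher, against 6.31%, and 4 lower, against 7.46%. GRIN1, first in M. fascicularis at 173 CPM over shared symbols (111 to 294 CPM), had 3 UMIs in the sections labelled P. anubis, both read together. The ratio over summed counts was 416, with an exact counting interval at 95% of 142 to 2020. GRIK5 had 1 UMI there against 55 CPM, a ratio of 392 with an interval of 70.4 to 15500. ASIC2 had 0 UMIs and was at least 17.3-fold lower than its 7.28 CPM, and GRID1 had 4 UMIs against 21.7 CPM, a ratio of 35.2 with an interval of 13.7 to 130. All UMIs of GRIN1, GRIK5 and GRID1 came from the deeper of the 2 sections.

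Among the other receptor genes there were both higher and lower levels. ASIC1 was at 59.3 CPM in the sections labelled P. anubis (42.8 and 75.8) against 2.49 CPM (0.477 to 6.90) in M. fascicularis, which is 23.8-fold higher, and GRIA3 was at 12.2 CPM against 1.86 CPM, 6.56-fold higher. ASIC3 was at 23.6 CPM against 55.1 CPM, so that ASIC1 led the family in these sections. GABRG3, on 5 UMIs, was at 1.82 CPM against 11.2 CPM. For ASIC3 and GABRG3 the sections overlapped those of M. fascicularis. GRIA4 was at 104 against 88.3 CPM, GRIK1 at 57.8 against 56.1 CPM and GLRB at 81.4 against 72.5 CPM, none of them apart. GRIA2, at 52.8 against 16.5 CPM, was 3.19-fold higher, below the fold used. Neuron-list sums were 29700 and 43800 CPM, over 12 matched genes against 10 in M. fascicularis, so that they cannot be set against each other. The feature set differed with the label, and its part in the differences was not tested.

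**Figure D5:**
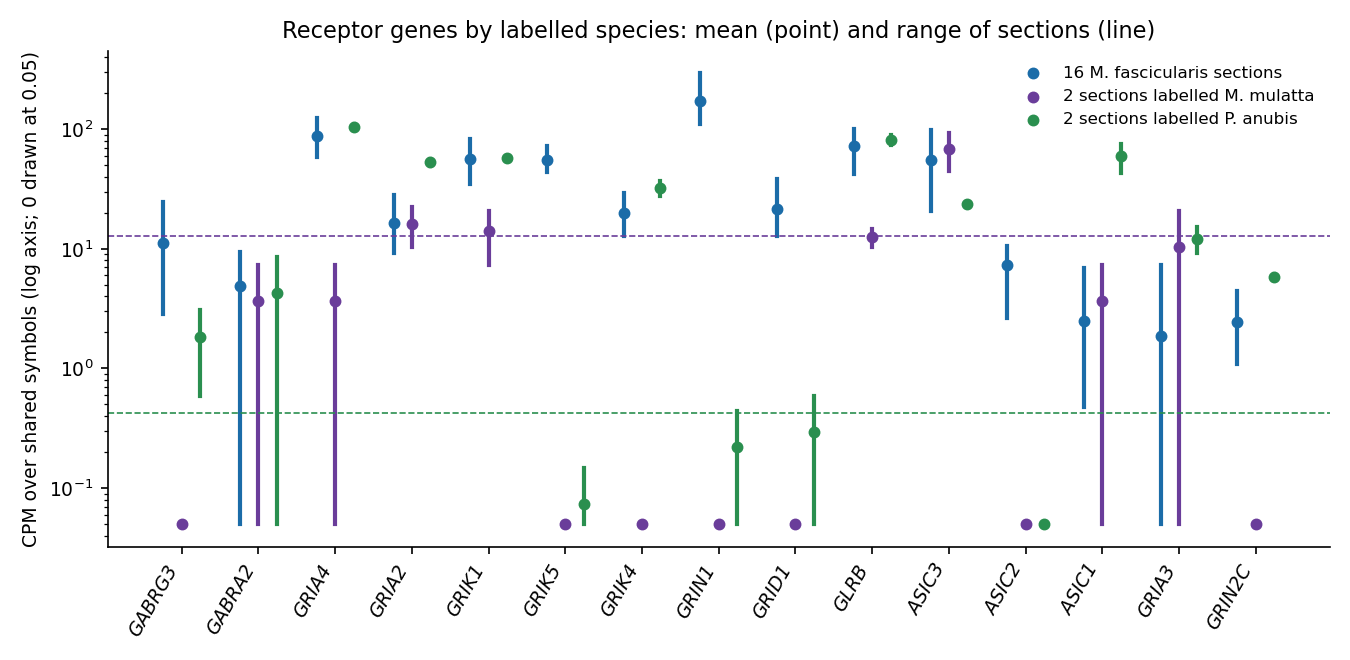
Receptor gene levels by labelled species in CPM over 13089 shared symbols, on a log axis, with means as points and the range over sections as lines. Dashed lines mark the level that 3 counts allow in the sections labelled M. mulatta (12.9 CPM) and P. anubis (0.421 CPM). GRIN1 and GRIK5 lie near or under the P. anubis floor, and ASIC1 lies far above its M. fascicularis range.

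The sections labelled M. mulatta were too shallow for most receptor genes, since 3 counts correspond to 12.9 CPM over shared symbols there. By the same rule 12 of 40 genes were apart from M. fascicularis, against 32.5% of all shared symbols, namely 11 lower, against 25.6%, and GRIK3 higher on 1 UMI in each section, against 6.91%. GRIN1, with 0 UMIs, was at least 13.4-fold lower, and GRIK5, with 0 UMIs, at least 4.26-fold lower. GRIA4 had 1 UMI, with a ratio of 21.4 (3.83 to 844) over summed counts. GLRB had 3 UMIs and a ratio of 5.93 with an interval of 2.03 to 28.8. Some of the 11, such as ASIC2, had 0 UMIs here and lay under this floor in M. fascicularis too, at 7.28 CPM, so that for them no difference could be detected at this depth. ASIC3 had 15 UMIs, at 68.5 CPM against 55.1 CPM, and was the receptor gene with the most UMIs in these sections. Against the sections labelled P. anubis, 9 of 40 genes were apart, against 31.3% of all shared symbols. GRIK3 was the 1 higher, against 6.35%, and 8 were lower, against 25%.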

How the data were processed

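UMI counts per gene and spot, and their sums under tissue per section, were deposited by the authors; matrices came from Space Ranger 2.0.0 in 12 sections and 2.1.0 in 7, per the file headers. The submitters' processing notes name the build Mmul_10, whereas feature identifiers are rhesus macaque ones only in the sections labelled P. anubis. Moran's I, a score of spatial likeness, its p-value and its adjusted p-value were deposited by the authors. Per the labels, spots lay on 10x Visium slides, with no length or depth correction stated. Levels were computed as UMI counts per 1000000 UMIs of a section (CPM). Counts were summed per specimen and tested with edgeR 4.0.16 (TMM, filterByExpr, robust quasi-likelihood fit, R 4.3.3) over all features, with DESeq2 1.42.0 as an alternative, and scripts were tested on simulated data. Where sections come from one ganglion, p-values measure only the spread between specimens as defined here. With so few specimens that spread was in part shared over genes, so a p-value does not rest on its own gene alone.

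Over 26 pairs of sections of a group, chi-square divided by its degrees of freedom was never below 3.93, so none was treated as a repeat. The main fits did not pair sections by their number. Over 24 same-numbered pairs, correlations of deviations ran from -0.21 through a median of 0.02 to 0.52, and 10 were over 0.1. Of 16 sections, 4 correlated best with their own number. The receptor genes and lists were chosen with earlier results of these data known. Named genes are the 3 highest of each family with at least 100 UMIs, every gene called in a test, PVALB, SCN11A and called partner genes, up to 8 per test. Sequences and coordinates were not used here. Some receptor and partner genes are counted in totals but not reported here by name.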

Additional observations from a re-analysis of the deposited data

Results flagged for a closer look

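ASIC3 had a neuron-list contrast that differed between batches, by -0.93 log2 units, batch 2 minus batch 1. The values behind it stand in the report.

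Within specimens, 1 of 4 sections stood apart from the others for 4 genes, among 56 groups of 4 tested, where chance flags about 1 in 20. GRIK5 was at 41.2 CPM in section 2 of the batch 1 female, against 28.6 to 30.0 CPM in the other sections. GRIA2 was at 14.3 CPM in section 1 of the batch 2 male, against 7.41 to 8.40 CPM. GRID1 was at 25.5 CPM in section 4 of the same male, against 14.8 to 16.3 CPM. GABRA5 was at 24.2 CPM in section 3 of the batch 1 male, against 22.3 to 22.6 CPM.

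Some receptor genes carry a symbol only in the feature sets of the other labelled species. In section 2 of the sections labelled P. anubis, GRIN3B had 10 UMIs (0.794 CPM) and GABRD had 4 UMIs (0.318 CPM), above the 0.238 CPM that 3 counts allow there.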

How the results depend on the processing

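The count of receptor genes called for batch, 0 as reported, was 1 with DESeq2 and 1 with no filter on low counts. With sections as samples it was 6 of 16 tested, against 4317 of 10670 features. With the replicate block as well it was 7 of 16, against 4425 of 11264 features. It lay between 0 and 1 with each section left out, and 2 genes had sections that did not overlap. For sex it was 0 in every alternative. In neuron-list spots the 10 calls became 8 with DESeq2, 6 higher and 2 lower, against 3093 of 11955 features. With no block for the specimen they became 2, against 50 of 11325 features. They became 5 of 11 tested at 500 UMIs per spot, against 1636 of 8287 features, and lay between 8 and 11 with a section left out. In PVALB against SCN11A spots the 12 calls became 7 with DESeq2, 3 with no block for the specimen and 1 of 4 at 500 UMIs per spot. All features called were 1322 of 10675, 189 of 10045 and 363 of 4092 in these fits. The receptor calls lay between 9 and 12 with a section left out, or between 8 and 12 with a specimen left out. With specimen and section number as replicate block, 8 of 16 genes were called in neuron-list spots, against 4616 of 10287 features. In PVALB against SCN11A spots 10 of 13 were called, against 2218 of 8789 features. The median of 4.5 genes per section by Moran's I was 0.0 with I of at least 0.1. Over labelled species, the 9 genes apart between the labels M. mulatta and P. anubis became 14 at 2-fold; with a section left out the counts lay between 12 and 14, 5 and 8, and 9 and 12 for the 3 pairs.

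The signs of GABRG3, GRIK1 and GRIK4 in neuron-list spots turned without neurofilament genes and PRPH in the list, to 0.33, 0.50 and 0.59. GRIK1 was at 0.66 at 500 UMIs per spot. In PVALB against SCN11A spots none of the 9 named genes turned in 253 fits and 225 kept the call. Thinning left few counts, and GRIA4 and GRIK1 lost their call with it. The cause of the losses, under thinning or in other fits, was not tested.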
